A study of Rattus norvegicus with 21 samples.

Results

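Interferon regulatory factors (IRFs), signal transducers and activators of transcription (STATs) and the kinase Jak2 carry the interferon-γ signal from the cell surface to genes in the nucleus. The set described here was given as 9 named genes: Irf1, Irf2, Irf7, Irf8, Irf9, Stat2, Stat3, Stat5a and Jak2. Each gene was read from the probe set that carried its symbol alone and had the highest mean over all arrays, and 8 of the 9 were measured in this way, out of 13438 genes on the array. Irf8 was not analysed here. The levels come from 21 microarrays of INS-1, a rat insulinoma line that secretes insulin and is used to study pancreatic beta cells. There were 7 groups of 3 arrays. The pCTSH1 groups carried a stable cathepsin H plasmid, encoding a lysosomal protease, and represent 1 clone. They were sampled at 0, 6 and 16 h of cytokines. The pcDNA groups carried the empty vector stably and were sampled at the same times. The INS1 group was untransfected and had no cytokines. The cytokines were recombinant mouse IL-1β at 150 pg/ml and rat IFNγ at 5 ng/ml, given together. The study asks how cathepsin H alters the response of beta cells to these cytokines. Cells kept for 6 or 16 h without cytokines were not analysed here, so the effect of the cytokines cannot be told apart from that of time in culture or handling.

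As background, IFNγ binds a receptor made of Ifngr1 and Ifngr2, whose kinases Jak1 and Jak2 phosphorylate STAT proteins. Pairs of phosphorylated STAT proteins bind the gamma-activated site (GAS) of target genes, among them the gene of Irf1, which then acts on further promoters. Stat2 and Irf9 are parts of the complex ISGF3, which type I interferons activate and which binds the interferon-stimulated response element (ISRE). Irf7 amplifies type I interferon production, Irf2 competes with Irf1 for the same sites, Stat3 mediates signals of the IL-6 family, and Stat5a those of prolactin and growth hormone. In beta cells, IFNγ together with IL-1β, which acts through NF-κB, drives inflammatory gene expression and cell death.

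All 8 genes were above background on each of the 21 arrays. The background of an array, its brightest nonspecific control, lay between 3.88 and 4.17 on the log2 scale. Array medians lay between 4.88 and 5.08, and arrays of 1 group correlated at 0.992 to 0.997 over all probe sets. Ctsh, the rat cathepsin H gene, had group means between 3.67 and 4.45, at or near background. It was above background on 2 of 3 pCTSH1 arrays at each time and on 0, 0 and 1 of 3 pcDNA arrays at 0, 6 and 16 h. By group means the level in pCTSH1 cells was at least 1.03-fold higher at 6 h and at least 1.27-fold higher at 16 h than in pcDNA cells. The difference passed at none of the 3 times (limma, adjusted p = 0.945, 0.458 and 0.08 at 0, 6 and 16 h). At 16 h the arrays of the lines overlapped, and the pCTSH1 arrays read 4.11, 4.15 and 5.08. The labels do not name the species of the transfected sequence, so the overexpression could not be checked here. The 7 measured beta cell genes (Ins1, Ins2, Pdx1, Nkx6-1, Neurod1, Slc2a2 and Iapp) were above background on all arrays. Of the 5 measured leukocyte genes, Cd68 and Laptm5 were above it on all 21 arrays, Ptprc on 1, and Cd3e and Itgam on 0.

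Promoters are shown because IRF and STAT genes are themselves known targets of STAT, IRF and NF-κB factors. RefSeq promoter sequences (build GRCr8, 250 bases before to 50 bases after an annotated transcript start) were matched for 7 of the 8 measured genes. Both strands were searched for 3 motifs. The motifs were GAS (TTC, any 3 bases, GAA), the ISRE core (GAAA, any 2 bases, GAAA) and the NF-κB site. A match was found in 3 of the 7 windows, which are printed 5′ to 3′ on the gene's strand with the matches in capitals. The Irf1 window, chr10:38417685-38417984 on the plus strand, held a GAS at bases -142 to -134 from the start and an NF-κB site at -65 to -56. The Irf7 window, chr1:205799974-205800273 on the minus strand, held an ISRE core at -69 to -60, read on the opposite strand. The Irf9 window, chr15:33065586-33065885 on the plus strand, held a GAS at -99 to -91. The Irf7 and Irf9 windows lie wholly inside the spans of these genes (205796956 to 205800543 and 33065422 to 33071881). Their positions are therefore counted from a start within the gene, not from its outer end.
Irf1: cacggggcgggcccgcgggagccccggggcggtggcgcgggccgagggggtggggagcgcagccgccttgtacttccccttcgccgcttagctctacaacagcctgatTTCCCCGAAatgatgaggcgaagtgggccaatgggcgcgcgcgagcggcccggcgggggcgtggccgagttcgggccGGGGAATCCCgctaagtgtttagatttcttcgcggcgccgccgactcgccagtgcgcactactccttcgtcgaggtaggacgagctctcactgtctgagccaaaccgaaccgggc
Irf7: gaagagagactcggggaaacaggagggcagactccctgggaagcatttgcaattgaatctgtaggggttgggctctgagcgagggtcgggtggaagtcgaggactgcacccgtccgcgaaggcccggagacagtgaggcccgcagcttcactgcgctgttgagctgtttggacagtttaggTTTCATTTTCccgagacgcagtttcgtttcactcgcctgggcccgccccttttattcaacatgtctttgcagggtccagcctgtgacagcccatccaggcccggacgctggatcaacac
Irf9: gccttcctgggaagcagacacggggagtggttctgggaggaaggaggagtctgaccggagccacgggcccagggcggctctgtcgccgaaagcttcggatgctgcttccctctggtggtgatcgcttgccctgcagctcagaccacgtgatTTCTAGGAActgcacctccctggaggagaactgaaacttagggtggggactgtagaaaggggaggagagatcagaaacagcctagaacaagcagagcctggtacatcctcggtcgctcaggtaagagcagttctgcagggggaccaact
The NF-κB site of Irf1 matched on both strands at the same bases, and no other matches overlapped. None of the 3 motifs was found in the windows of Stat2, Stat3, Stat5a and Jak2. Of all 33469 promoter windows of this length, 8.87% held a GAS, 3.92% an ISRE core and 4.18% an NF-κB site. These are matches of letters and not measured binding.

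The first question was how these genes responded to the cytokines. All 8 measured genes rose within 6 h in both lines. At 6 h against 0 h, 8 of 8 passed as higher in pCTSH1 cells, where 10.7% of all 31042 probe sets tested did, and 16.0% passed as lower. In pcDNA cells 8 of 8 passed as higher too, where 12.1% of all probe sets did and 18.5% passed as lower. The members were chosen with earlier results of these data known, so these counts are a description. The median change of the 8 genes was 2.74 on the log2 scale in pCTSH1 cells and 2.83 in pcDNA cells, where the median of all 13438 genes was -0.062 and -0.056. The test was limma with Benjamini-Hochberg adjustment over all probe sets and a threshold of 0.05. Of the probe sets called at 6 h, 40.1% in pCTSH1 and 39.6% in pcDNA were higher. These shares were 38.9% and 42.5% with arrays centred on their medians and 51.9% and 51.6% after cyclic loess between arrays. RNA of a whole culture was measured, so fewer cells of a type and less RNA per cell cannot be told apart.

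At 16 h the pattern split by gene. Against 0 h, 7 of 8 passed as higher in pCTSH1 cells and Stat5a did not pass, where 20.8% of all probe sets were higher and 25.6% lower. In pcDNA cells 7 of 8 passed as higher and Stat5a as lower, where 21.3% of all probe sets were higher and 25.1% lower. The median of the 8 genes was 3.44 in pCTSH1 cells and 3.24 in pcDNA cells, against -0.012 and -0.004 over all genes. Of the probe sets called at 16 h against 0 h, 44.8% in pCTSH1 and 45.8% in pcDNA were higher. These shares were 53.1% and 54.8% with arrays centred on their medians and 51.1% and 51.5% after cyclic loess. Between 16 and 6 h some members were higher and others lower. In pCTSH1 cells 2 were higher at 16 h (Irf9 and Stat2), 3 were lower (Irf1, Irf2 and Stat5a) and 3 did not pass, where 19.4% of all probe sets were higher and 21.9% lower. In pcDNA cells Irf9 was higher, 4 were lower (Irf2, Irf7, Stat3 and Stat5a) and 3 did not pass, where 20.2% of all probe sets were higher and 22.0% lower. Whether these counts differ from the shares of all probe sets was not tested. Leaving out 1 array ended the pCTSH1 calls of Irf1, Irf2 and Stat2 in 6, 5 and 4 of 6 fits. It ended the pcDNA call of Irf7 in 1 of 6. In pCTSH1 cells 47.0% of the probe sets called between 16 and 6 h were higher. The share was 49% after cyclic loess and 57.9% after each array was centred on its median. That centring moved the median change of all probe sets to 0.103, against 0.005 as deposited.

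**Figure D1:**
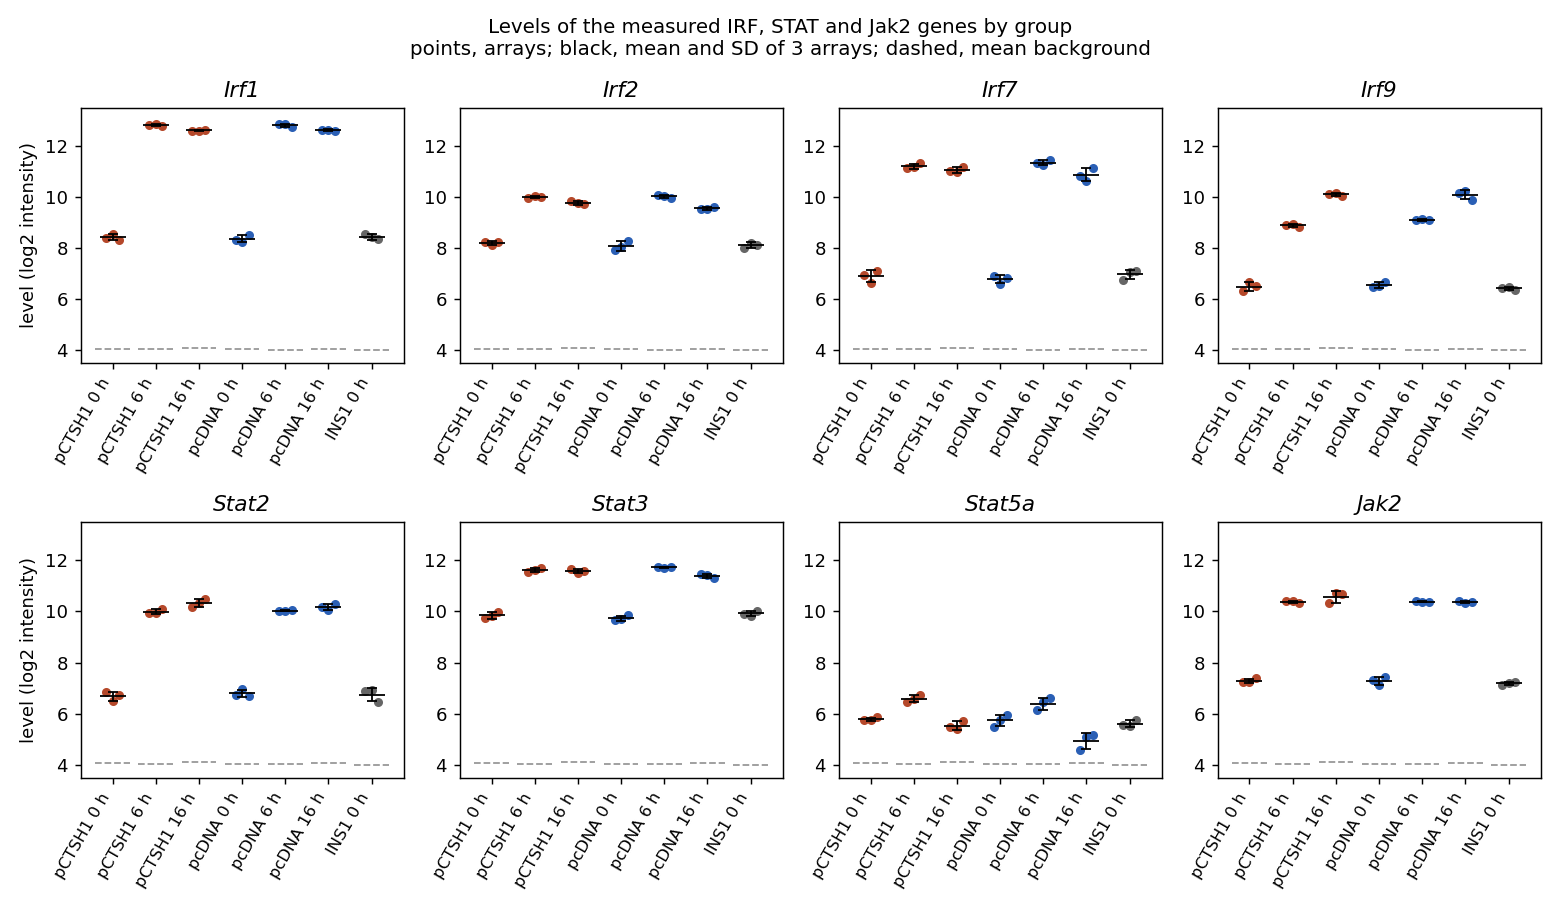
Level of each of the 8 measured genes (log2 intensity, y axis) in the 7 groups (x axis), with 1 point per array, black bars for the mean and SD of 3 arrays, and dashed lines for the mean background. The 6 and 16 h arrays lie above all 0 h arrays for every gene except Stat5a, which at 16 h lies below its own line's 0 h arrays.

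Jak2 is the kinase bound to the Ifngr2 chain of the IFNγ receptor, and it was measured by probe set 1368856_PM_at (gene on chromosome 1, 236408905 to 236468769, GRCr8). In pCTSH1 cells its log2 level was 7.24, 7.25 and 7.38 at 0 h, 10.40, 10.41 and 10.34 at 6 h and 10.32, 10.73 and 10.67 at 16 h. In pcDNA cells it was 7.33, 7.11 and 7.42 at 0 h, 10.41, 10.36 and 10.37 at 6 h and 10.42, 10.35 and 10.39 at 16 h. The untransfected INS1 arrays read 7.13, 7.19 and 7.23. All cytokine arrays thus lay above all arrays without cytokines, and the 2 cytokine times overlapped in each line. Jak2 rose by 3.09 ± 0.10 (log2, standard error of the model, n = 3 a group) at 6 h in pCTSH1 cells, an 8.54-fold change (adjusted p = 2.38e-15), and by 3.10 ± 0.10 in pcDNA cells, 8.55-fold (adjusted p = 2.08e-15). At 16 h against 0 h the changes were 3.28 ± 0.10 and 3.10 ± 0.10. From 6 to 16 h they were 0.19 (adjusted p = 0.135) in pCTSH1 cells and 0.00 (adjusted p = 0.989) in pcDNA cells. Without replicate 1 of pCTSH1 at 16 h, the lowest of its group, the step from 6 to 16 h was 0.32 with adjusted p = 0.00664. It also passed with arrays centred on their medians (0.29, adjusted p = 0.0168).

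Irf1, an activator of immunoproteasome, antigen-presentation and guanylate-binding genes, was already well above background without cytokines. Probe set 1368073_PM_at (chromosome 10, 38417935 to 38424946) read 8.41, 8.57 and 8.31 at 0 h, 12.81, 12.87 and 12.79 at 6 h and 12.59, 12.59 and 12.63 at 16 h in pCTSH1 cells. The pcDNA arrays read 8.34, 8.25 and 8.53 at 0 h, 12.84, 12.84 and 12.73 at 6 h and 12.63, 12.63 and 12.59 at 16 h. The INS1 arrays read 8.55, 8.42 and 8.34. All 9 arrays without cytokines lay between 8.25 and 8.57 and all 12 with cytokines between 12.59 and 12.87. The change at 6 h was 4.39 ± 0.08 in pCTSH1 cells, 21-fold (adjusted p = 1.09e-18), and 4.43 ± 0.08 in pcDNA cells, 21.6-fold (adjusted p = 9.87e-19). At 16 h it was 4.17 ± 0.08 and 4.25 ± 0.08 against 0 h. Every 16 h array lay below every 6 h array of its line. This small decline was -0.22 ± 0.08 in pCTSH1 cells (adjusted p = 0.0438) and -0.19 ± 0.08 in pcDNA cells (adjusted p = 0.0906). The decline in pcDNA cells passed with the brighter 50% of probe sets (adjusted p = 0.0407) and with trend and robust eBayes (adjusted p = 0.0231). The call in pCTSH1 cells was lost when any 1 of the 6 arrays was left out (adjusted p = 0.0638 to 0.127), with arrays centred on their medians (-0.12, adjusted p = 0.301) and after cyclic loess (-0.17, adjusted p = 0.137). It was also lost with the replicate number as a block (adjusted p = 0.0511).

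Irf2, which binds the sites of Irf1 and is known mainly as its antagonist, also peaked at 6 h. In pCTSH1 cells probe set 1398561_PM_at (chromosome 16, 52171855 to 52283620) read 8.25, 8.12 and 8.25 at 0 h, 9.98, 10.05 and 9.99 at 6 h and 9.85, 9.76 and 9.71 at 16 h. In pcDNA cells the levels were 7.92, 8.04 and 8.29 at 0 h, 10.08, 10.05 and 9.95 at 6 h and 9.52, 9.53 and 9.61 at 16 h. INS1 cells read 8.00, 8.21 and 8.14. The 3 times did not overlap in either line. Irf2 rose 3.48-fold (1.80 ± 0.09, adjusted p = 3.17e-12) at 6 h in pCTSH1 cells and 3.85-fold (1.94 ± 0.09, adjusted p = 7.71e-13) in pcDNA cells. From 6 to 16 h it changed by -0.23 ± 0.09 in pCTSH1 cells (adjusted p = 0.0413) and -0.47 ± 0.09 in pcDNA cells (adjusted p = 0.000177). Leaving out single arrays ended the call in pCTSH1 cells in 5 of 6 cases (adjusted p = 0.0367 to 0.129), as did centring (adjusted p = 0.302) and loess (adjusted p = 0.0668). The array holds another 2 probe sets for Irf2, both dim, with means of 4.10 and 3.89 over all arrays. With the mean of all probe sets the change from 6 to 16 h was -0.18 (adjusted p = 0.0637) in pCTSH1 cells and -0.07 (adjusted p = 0.529) in pcDNA cells. The decline of Irf2 thus rests on its brightest probe set, and the dim ones, often at background, cannot decide it.

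Irf7, whose induction extends the type I interferon response, was read by probe set 1383564_PM_at (chromosome 1, 205796956 to 205800543). The pCTSH1 arrays read 6.96, 6.64 and 7.11 at 0 h, 11.14, 11.16 and 11.32 at 6 h and 11.02, 10.96 and 11.18 at 16 h. The pcDNA arrays read 6.90, 6.60 and 6.84 at 0 h, 11.32, 11.24 and 11.45 at 6 h and 10.82, 10.64 and 11.15 at 16 h. The INS1 arrays read 6.76, 7.06 and 7.10. With cytokines no array fell below 10.64, and without them none exceeded 7.11. The rise at 6 h was 4.30 ± 0.14 in pCTSH1 cells, 19.7-fold (adjusted p = 2.59e-15), and 4.56 ± 0.14 in pcDNA cells, 23.5-fold (adjusted p = 9.84e-16). At 16 h it was 4.15 ± 0.14 and 4.09 ± 0.14. Between 6 and 16 h the pCTSH1 arrays overlapped (-0.15 ± 0.14, adjusted p = 0.419). Those of pcDNA did not, and Irf7 fell there by 0.47 ± 0.14 (adjusted p = 0.00854), a call that was lost without replicate 2 of pcDNA at 16 h (-0.35, adjusted p = 0.064).

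Irf9, the DNA-binding part of ISGF3, was the 1 measured member that went on rising in both lines. In pCTSH1 cells probe set 1383448_PM_at (chromosome 15, 33065422 to 33071881) read 6.31, 6.66 and 6.52 at 0 h, 8.89, 8.93 and 8.83 at 6 h and 10.12, 10.16 and 10.05 at 16 h. In pcDNA cells it read 6.46, 6.50 and 6.69 at 0 h, 9.08, 9.15 and 9.09 at 6 h and 10.14, 10.25 and 9.89 at 16 h. The INS1 arrays read 6.45, 6.48 and 6.35. The times were ordered without overlap in both lines, and the 0 h arrays of pCTSH1, pcDNA and INS1 cells overlapped one another. Irf9 rose 5.24-fold at 6 h (2.39 ± 0.10, adjusted p = 1.92e-13) and 12.2-fold at 16 h (3.61 ± 0.10, adjusted p = 2.13e-16) in pCTSH1 cells. The corresponding rises in pcDNA cells were 5.88-fold (2.56 ± 0.10, adjusted p = 5.62e-14) and 11.7-fold (3.54 ± 0.10, adjusted p = 3.05e-16). From 6 to 16 h it rose by 1.22 ± 0.10 in pCTSH1 cells (adjusted p = 3.99e-09) and 0.99 ± 0.10 in pcDNA cells (adjusted p = 7.14e-08).

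Stat2, the STAT protein that brings the activation domain to ISGF3, reached most of its rise by 6 h. The pCTSH1 arrays of probe set 1389571_PM_at (chromosome 7, 1287025 to 1302858) read 6.84, 6.49 and 6.73 at 0 h, 9.94, 9.94 and 10.10 at 6 h and 10.16, 10.34 and 10.47 at 16 h. The pcDNA arrays read 6.72, 6.96 and 6.69 at 0 h, 10.01, 10.03 and 10.05 at 6 h and 10.16, 10.05 and 10.29 at 16 h. Levels in INS1 cells were 6.87, 6.91 and 6.45. The cytokine times did not overlap in pCTSH1 cells and did in pcDNA cells. At 6 h Stat2 rose 9.89-fold in pCTSH1 cells (3.31 ± 0.12, adjusted p = 3.39e-14) and 9.45-fold in pcDNA cells (3.24 ± 0.12, adjusted p = 3.91e-14). At 16 h against 0 h the rises were 12.4-fold and 10.4-fold. The step from 6 to 16 h was 0.33 ± 0.12 in pCTSH1 cells (adjusted p = 0.0394) and 0.13 ± 0.12 in pcDNA cells (adjusted p = 0.44). The call in pCTSH1 cells was lost in 4 of 6 fits that left out 1 array (adjusted p = 0.0205 to 0.16 over the 6) and with the replicate number as a block (adjusted p = 0.0526).

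**Figure D2:**
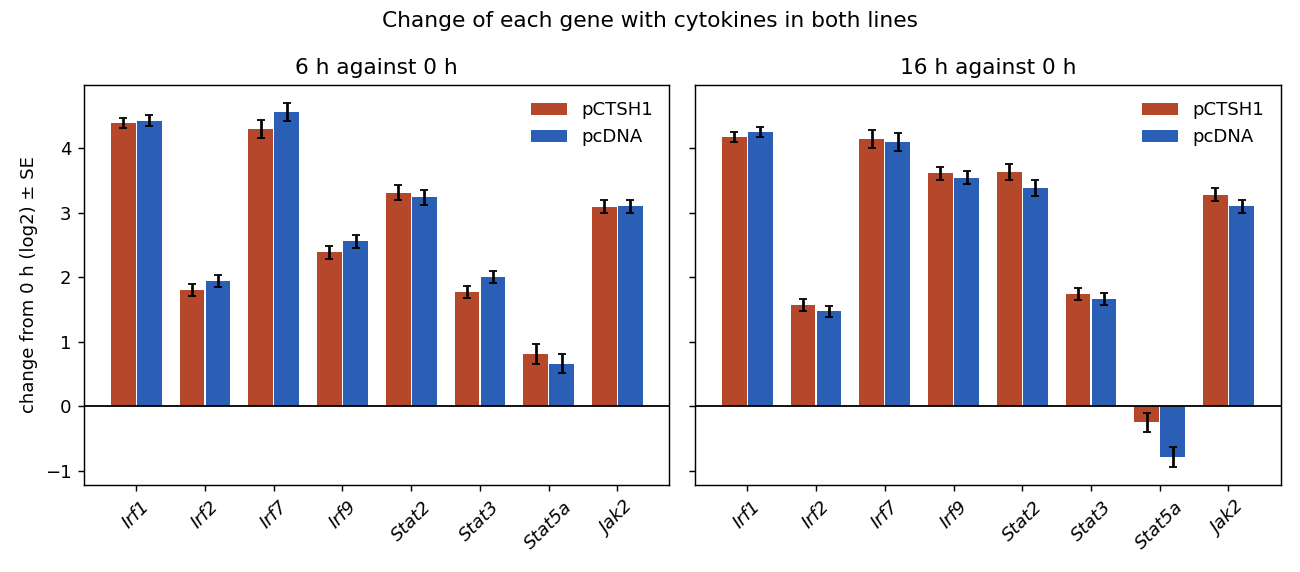
Change of each measured gene from 0 h (log2, y axis) at 6 h (left) and 16 h (right) in pCTSH1 and pcDNA cells, as bars with the standard error of the model. Irf1 and Irf7 stand at 4.09 or more at both times in both lines, Irf9 is higher at 16 h than at 6 h, and Stat5a is above 0 at 6 h and below it at 16 h.

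Stat3, the STAT protein of IL-6 family cytokines, was read by probe set 1370224_PM_at (chromosome 10, 86311528 to 86363513). Its pCTSH1 levels were 9.73, 9.82 and 9.99 at 0 h, 11.54, 11.62 and 11.69 at 6 h and 11.68, 11.50 and 11.59 at 16 h. Its pcDNA levels were 9.67, 9.69 and 9.85 at 0 h, 11.75, 11.71 and 11.73 at 6 h and 11.46, 11.44 and 11.30 at 16 h, and its INS1 levels 9.91, 9.83 and 10.02. In pCTSH1 cells both cytokine times overlapped, and in pcDNA cells they did not. Stat3 rose 3.41-fold at 6 h in pCTSH1 cells (1.77 ± 0.09, adjusted p = 2.34e-12) and 3.99-fold in pcDNA cells (2.00 ± 0.09, adjusted p = 2.75e-13). From 6 to 16 h it changed by -0.03 ± 0.09 in pCTSH1 cells (adjusted p = 0.851) and fell by 0.33 ± 0.09 in pcDNA cells (adjusted p = 0.00324). A further Stat3 probe set, 1371781_PM_at, gave the same directions over time, with rises of 2.21 and 2.26 at 6 h in pCTSH1 and pcDNA cells and changes of -0.16 and -0.44 from 6 to 16 h.

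Stat5a, which transmits prolactin and growth hormone signals in beta cells, departed from the other members. Probe set 1368231_PM_at (chromosome 10, 86285859 to 86310187) read 5.75, 5.74 and 5.85 at 0 h, 6.46, 6.57 and 6.74 at 6 h and 5.49, 5.40 and 5.71 at 16 h in pCTSH1 cells. In pcDNA cells it read 5.48, 5.76 and 5.95 at 0 h, 6.14, 6.44 and 6.60 at 6 h and 4.58, 5.10 and 5.15 at 16 h. The INS1 arrays read 5.55, 5.52 and 5.77. In both lines the 6 h arrays were the highest and the 16 h arrays the lowest, without overlap between times. Stat5a rose at 6 h by 0.81 ± 0.15 in pCTSH1 cells (1.75-fold, adjusted p = 0.000316) and by 0.66 ± 0.15 in pcDNA cells (1.58-fold, adjusted p = 0.00179). At 16 h against 0 h the change was -0.25 ± 0.15 in pCTSH1 cells, which did not pass (adjusted p = 0.21), and -0.79 ± 0.15 in pcDNA cells, which did (adjusted p = 0.000179). From 6 to 16 h Stat5a fell by 1.06 ± 0.15 in pCTSH1 cells (adjusted p = 7.81e-06) and by 1.45 ± 0.15 in pcDNA cells (adjusted p = 1.17e-07). The lowest value, 4.58 in replicate 1 of pcDNA at 16 h, was still above that array's background.

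Stat5a lies between Stat5b and Stat3 on chromosome 10, with gaps of 9680 and 1340 bases (GRCr8), and these neighbours followed 3 different courses. Stat5b, the close relative of Stat5a, changed by -0.11 ± 0.17 at 6 h in pCTSH1 cells (adjusted p = 0.731) and -0.07 ± 0.17 in pcDNA cells (adjusted p = 0.827). At 16 h it rose by 1.14 ± 0.17 (adjusted p = 1.33e-05) in pCTSH1 cells and 1.38 ± 0.17 (adjusted p = 1.1e-06) in pcDNA cells, the time at which Stat5a had its lowest levels. Group means of Stat5b were 5.59, 5.48 and 6.72 at 0, 6 and 16 h in pCTSH1 cells and 5.26, 5.19 and 6.64 in pcDNA cells. Stat5a and Stat5b have similar sequences, and whether their probes share signal was not tested.

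The next question was whether the cathepsin H clone differed from the empty vector line. At 0 h the difference passed for 0 of 8 genes (limma, 1.87% of all probe sets passed), with 0 of 8 at an unadjusted p below 0.05. The differences ran from -0.10 to 0.12 on the log2 scale. At 6 h 0 of 8 passed (2.86% of all probe sets), and 1 had an unadjusted p below 0.05. That gene was Irf9, with a difference of -0.22, pCTSH1 minus pcDNA (95% interval -0.43 to -0.01, adjusted p = 0.37), with no overlap between the lines' arrays. At 16 h 1 of 8 passed, where 3.80% of all probe sets did, and 3 had an unadjusted p below 0.05.

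Stat5a was the gene that passed at 16 h, with 5.53 ± 0.16 in pCTSH1 cells and 4.94 ± 0.32 in pcDNA cells (SD, n = 3 each). The difference was 0.59 ± 0.15 (95% interval 0.27 to 0.91, adjusted p = 0.0324), and the lowest pCTSH1 array, 5.40, lay above the highest pcDNA array, 5.15. Without replicate 1 of pcDNA at 16 h the difference was 0.41 (adjusted p = 0.18). It was 0.61 (adjusted p = 0.0637) without replicate 1 of pCTSH1 at 16 h, 0.50 (adjusted p = 0.127) without replicate 3, and 0.59 (adjusted p = 0.213) when only the arrays compared entered the fit. Irf2 was higher in pCTSH1 cells at 16 h by 0.22 (0.03 to 0.40, adjusted p = 0.222) and Stat3 by 0.19 (0.01 to 0.37, adjusted p = 0.284), and neither passed. The intervals of the remaining 5 genes at 16 h reached from -0.19 at the lowest to 0.47 at the highest.

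**Figure D3:**
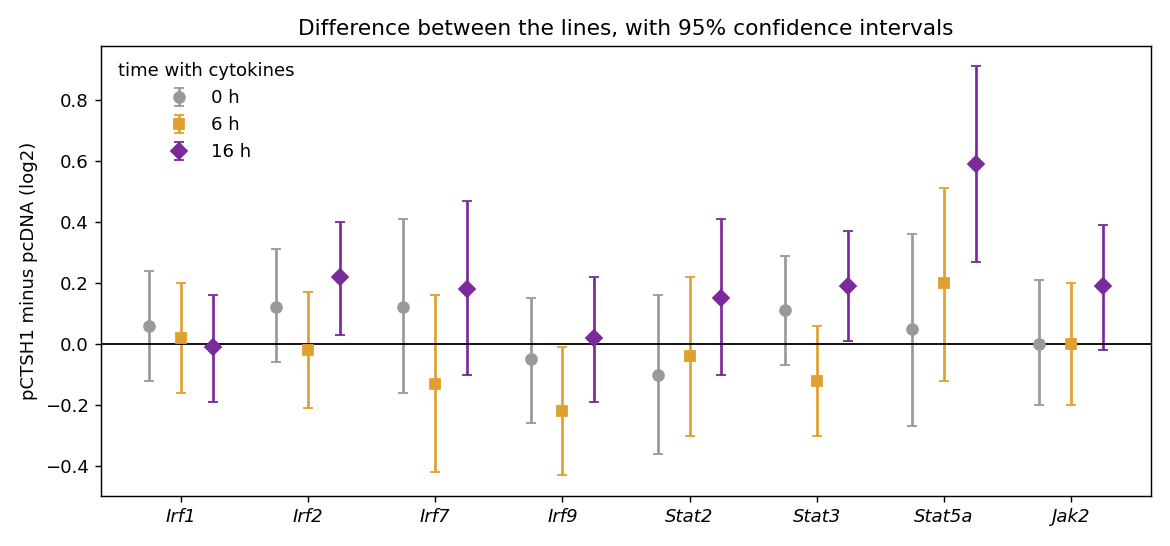
Difference between the lines, pCTSH1 minus pcDNA (log2, y axis), for each measured gene at 0, 6 and 16 h, with 95% confidence intervals of the model, not adjusted over genes. At 0 h all intervals include 0, and at 16 h Stat5a stands at 0.59 with an interval of 0.27 to 0.91.

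The responses themselves were compared by the interaction term of the same model. At 6 h 0 of 8 genes differed in response (0.103% of all probe sets did), with 0 at an unadjusted p below 0.05, and the differences ran from -0.25 to 0.15. At 16 h 0 of 8 differed (0.213% of all probe sets), with 1 at an unadjusted p below 0.05. This was Stat5a, whose response was higher in pCTSH1 cells by 0.54 (95% interval 0.09 to 0.99, adjusted p = 0.511), so its passing in pcDNA and not in pCTSH1 cells was not shown to be a difference between the lines. The change from 6 to 16 h, a comparison added after the results were seen, differed for 0 of 8 genes (0.267% of all probe sets). Stat3 alone had an unadjusted p below 0.05, with a difference of 0.31 (0.05 to 0.56, adjusted p = 0.391). For Irf1 the interval of the response difference was -0.29 to 0.21 at 6 h and -0.33 to 0.18 at 16 h, and for Jak2 it was -0.29 to 0.29 and -0.10 to 0.47.

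Against untransfected cells, no measured member passed without cytokines. For pCTSH1 against INS1 cells 0 of 8 passed (2.57% of all probe sets), with 0 at an unadjusted p below 0.05 and differences from -0.07 to 0.17. For pcDNA against INS1 cells 0 of 8 passed (0.00966% of all probe sets), and 1 had an unadjusted p below 0.05, Stat3 at -0.18 ± 0.09 (adjusted p = 1). The other Stat3 probe set, 1371781_PM_at, gave the opposite sign there, 0.34 ± 0.09 (adjusted p = 0.753). It also differed in sign for pCTSH1 against INS1 cells (0.24 against -0.07) and for pCTSH1 against pcDNA cells at 0 h (-0.10 against 0.11), none of which passed, so no direction is given for Stat3 without cytokines. These comparisons share the INS1 arrays.

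Other genes of the pathway were described from a list of 17, of which 13 were measured. At 6 h 5 of 13 rose and 0 fell in pCTSH1 cells (10.7% and 16.0% of all probe sets), and 8 rose and 0 fell in pcDNA cells (12.1% and 18.5%). At 16 h 10 rose and 1 fell in pCTSH1 cells (20.8% and 25.6% of all probe sets), and 8 rose and 1 fell in pcDNA cells (21.3% and 25.1%). The list's median change was 0.45 and 0.59 at 6 h and 0.58 and 0.64 at 16 h in pCTSH1 and pcDNA cells, where that of all genes was -0.062 and -0.056 at 6 h and -0.012 and -0.004 at 16 h.

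The receptor chains took separate courses. Ifngr1, the ligand-binding chain of the IFNγ receptor, averaged 8.42, 8.85 and 9.36 at 0, 6 and 16 h in pCTSH1 cells and 8.59, 8.92 and 9.44 in pcDNA cells, with rises of 0.94 ± 0.07 (adjusted p = 5.99e-10) and 0.85 ± 0.07 (adjusted p = 2.67e-09) at 16 h. Ifngr2, the signalling chain that holds Jak2, peaked at 6 h instead, with 8.56, 9.98 and 9.14 in pCTSH1 cells and 8.76, 9.84 and 9.03 in pcDNA cells. Its rise at 6 h was 1.42 ± 0.07 (adjusted p = 6.83e-12) in pCTSH1 cells and 1.08 ± 0.07 (adjusted p = 3.97e-10) in pcDNA cells. The type I interferon receptor chains went opposite ways at 16 h. Ifnar1 fell by 0.55 ± 0.11 (adjusted p = 0.00019) in pCTSH1 cells and by 0.79 ± 0.11 (adjusted p = 2.49e-06) in pcDNA cells. Ifnar2 rose by 1.33 ± 0.12 (adjusted p = 1.29e-08) and 0.98 ± 0.12 (adjusted p = 8.75e-07).

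Among the kinases, Tyk2, which serves the type I receptor, rose at 6 h by 1.12 ± 0.11 (adjusted p = 1.3e-07) in pCTSH1 cells and 1.29 ± 0.11 (adjusted p = 1.32e-08) in pcDNA cells. Jak1, the partner of Jak2 at the IFNγ receptor, changed by -0.10 ± 0.06 and -0.11 ± 0.06 at 6 h, which did not pass (adjusted p = 0.286 and 0.19). Irf3, a constitutive sensor-activated factor, passed at neither time in either line, with changes from -0.27 to 0.03 against 0 h. Il6st, the shared receptor chain that signals through Stat3, passed at 16 h only, by 1.05 ± 0.14 in pCTSH1 cells (adjusted p = 2.95e-06) and 0.78 ± 0.14 in pcDNA cells (adjusted p = 9.75e-05). Irf5, a factor best known in immune cells, averaged 4.21 and 4.06 at 0 h, near background, and rose by 1.28 ± 0.17 and 0.94 ± 0.17 at 16 h (adjusted p = 3.13e-06 and 0.000114) in pCTSH1 and pcDNA cells. None of the 13 passed between the lines at 0, 6 or 16 h, with 2, 1 and 4 at an unadjusted p below 0.05.

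**Figure D4:**
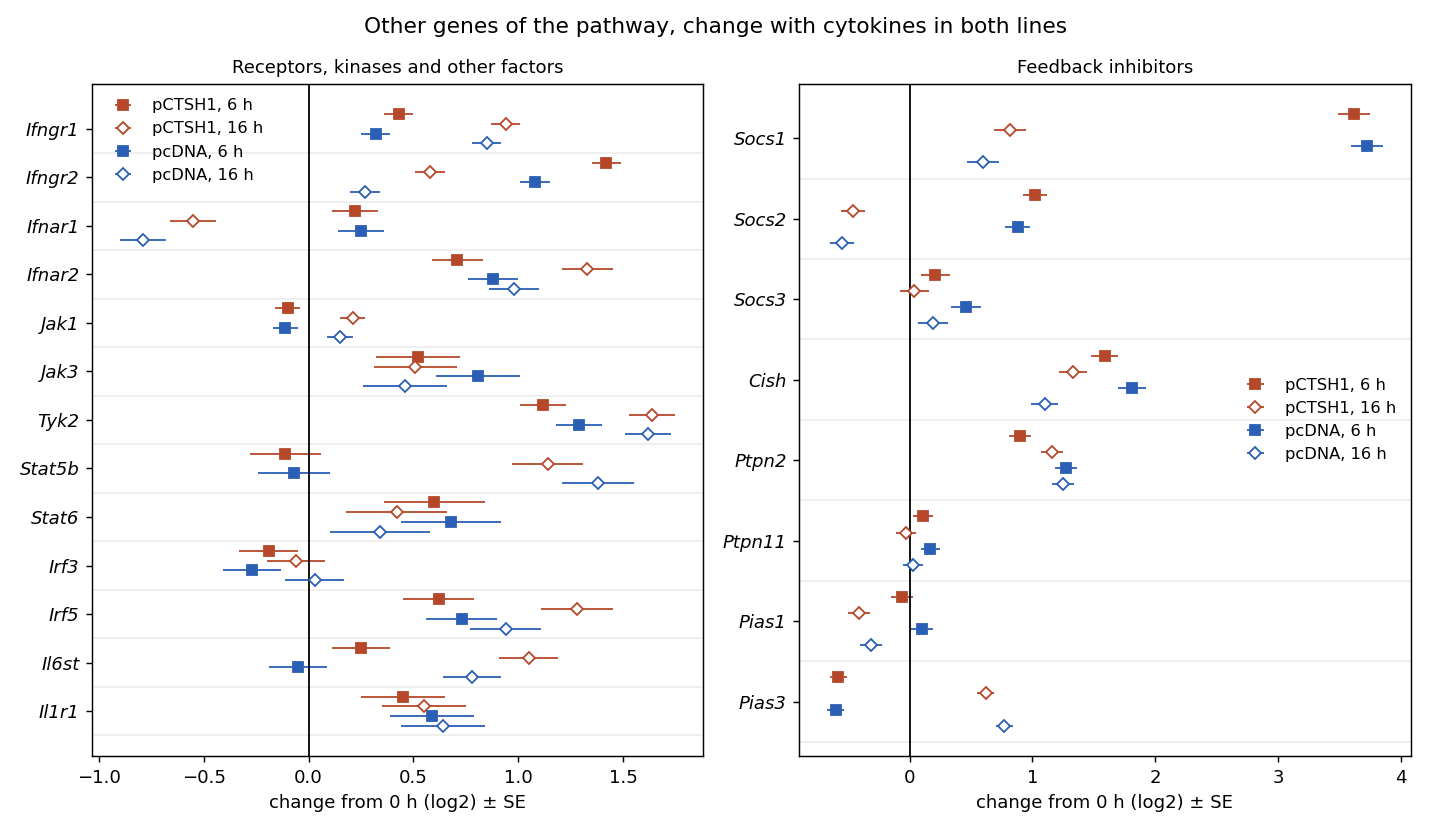
Change from 0 h (log2, x axis) of 13 other genes of the pathway (left) and 8 feedback inhibitors (right) at 6 h (filled squares) and 16 h (open diamonds) in pCTSH1 and pcDNA cells, with the standard error of the model. Ifngr2, Socs1 and Socs2 are higher at 6 h than at 16 h in both lines, and Stat5b and Il6st the reverse.

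Of 8 feedback inhibitors, all measured, 4 rose and 1 fell at 6 h in pCTSH1 cells and 5 rose and 1 fell in pcDNA cells, and at 16 h 4 rose and 2 fell in each line. Of all probe sets, 10.7% rose and 16.0% fell at 6 h in pCTSH1 cells and 12.1% and 18.5% in pcDNA cells. At 16 h 20.8% rose and 25.6% fell in pCTSH1 cells and 21.3% and 25.1% in pcDNA cells, so the share of inhibitors that fell at 16 h was near that of all probe sets. Their median change was 0.56 and 0.67 at 6 h and 0.33 and 0.40 at 16 h in pCTSH1 and pcDNA cells, where that of all genes was -0.062 and -0.056 at 6 h and -0.012 and -0.004 at 16 h. Socs1, which binds and blocks Jak2, averaged 4.09, 7.71 and 4.91 at 0, 6 and 16 h in pCTSH1 cells and 4.10, 7.82 and 4.70 in pcDNA cells. Its 6 h rise was 12.3-fold in pCTSH1 cells (3.62 ± 0.13, adjusted p = 2.49e-14) and at least 13-fold in pcDNA cells, where 2 of the 3 arrays at 0 h lay at background (adjusted p = 1.38e-14). Socs2, an inhibitor of growth hormone signalling, was, like Stat5a, highest at 6 h and lowest at 16 h, with 6.17, 7.20 and 5.71 in pCTSH1 cells and 6.06, 6.94 and 5.51 in pcDNA cells. Its changes at 16 h against 0 h were -0.46 ± 0.10 (adjusted p = 0.00061) and -0.55 ± 0.10 (adjusted p = 9.98e-05). Cish, another STAT5-induced inhibitor, stayed higher at 16 h by 1.33 ± 0.11 (adjusted p = 1.58e-09) in pCTSH1 cells and 1.10 ± 0.11 (adjusted p = 2.57e-08) in pcDNA cells. Pias3, which binds Stat3, fell by 0.58 ± 0.07 and 0.60 ± 0.07 at 6 h (adjusted p = 4.88e-06 and 2.44e-06) and rose by 0.62 ± 0.07 and 0.77 ± 0.07 at 16 h against 0 h (adjusted p = 6.54e-07 and 2.98e-08) in pCTSH1 and pcDNA cells. Ptpn2, a phosphatase that removes phosphate from STAT proteins, rose by 0.90 ± 0.09 and 1.27 ± 0.09 at 6 h (adjusted p = 9.61e-08 and 4.92e-10). None of the 8 passed between the lines at 0, 6 or 16 h, with 1 at an unadjusted p below 0.05 each time.

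Known targets of STAT and IRF factors were taken from a list of 24, of which 21 were measured, and all 21 rose at 6 and at 16 h in both lines. The list, too, was chosen with earlier results of these data known. Of all probe sets, 10.7% and 12.1% rose at 6 h and 20.8% and 21.3% at 16 h in pCTSH1 and pcDNA cells. The list's median change was 5.36 and 5.35 at 6 h and 4.84 and 4.88 at 16 h in pCTSH1 and pcDNA cells. Tap1, the peptide transporter induced by Irf1, rose 59.2-fold at 6 h in pCTSH1 cells (adjusted p = 1.5e-19) and 40.8-fold in pcDNA cells (adjusted p = 5.56e-19). Isg15, a ubiquitin-like target of ISGF3, rose 137-fold (adjusted p = 1.19e-20) and 174-fold (adjusted p = 4.83e-21). Between the lines at 0 h 4 of 21 were lower in pCTSH1 cells, where 1.87% of all probe sets passed in either direction: Psmb8 (-0.72, adjusted p = 1.74e-05), Fas (-0.87, adjusted p = 0.000277), Tap1 (-0.58, adjusted p = 0.00218) and Psmb9 (-0.52, adjusted p = 0.00322). At 6 h 1 of 21, Fas, was lower (-0.48, adjusted p = 0.0309), where 2.86% of all probe sets passed. At 16 h 3 of 21 were higher in pCTSH1 cells, where 3.80% of all probe sets passed: Ifit2 (1.03, adjusted p = 0.00458), Ifit3 (0.79, adjusted p = 0.0408) and Ciita (0.70, adjusted p = 0.000632). Ifit2 and Ifit3 were near background in pcDNA cells at 16 h, with means 0.78 and 0.35 above it.

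The course of each member over the 7 group means was set beside that of all other genes whose group means spanned at least 1 on the log2 scale, 4054 in number, by Pearson's r. All genes were read on the same arrays, and r over 7 points is given as a description. Most members differed mainly between groups without and with cytokines, so any gene with that step can reach an r near 1. How many genes had a similar r was not counted, and the genes named need not be particular to a member. Irf1 was most like Gbp2 (r = 1.000), Abcg3l4 (0.999) and Cxcl9 (0.999), Irf7 most like Usp18, Gbp2 and Isg15 (0.999 each), and Stat2 most like Mx1, B2m and Cd40 (1.000 each). Irf9 was most like Bst2, C3 and Dzip1l (0.999 each). Bst2 is named here for its likeness to Irf9. Its rise from 6 to 16 h, by 1.13 in pCTSH1 cells and 0.93 in pcDNA cells, therefore follows from that choice. Jak2 was most like Cxcl9 (1.000), Fbxw17 and Ripk2 (0.999 each), Irf2 most like Cttnbp2nl, Cxcl2 (0.999 each) and Mapk11 (0.998), and Stat3 most like Apol3l1, Aldoc (0.999 each) and Cxcl3 (0.998). Stat5a was most like Herc3 (0.988), Tnrc18 (0.983) and Scn3a (0.983). Between members, r ran from 0.907 (Irf2 with Irf9) to 0.999 without Stat5a, and from -0.101 (with Irf9) to 0.318 (with Irf2) for Stat5a.

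Marker genes moved beside these changes. The 7 beta cell genes had summed log2 levels of 83.32, 79.70 and 75.99 at 0, 6 and 16 h in pCTSH1 cells, 82.42, 78.00 and 75.21 in pcDNA cells and 82.92 in INS1 cells. At 6 h 2 of the 7 fell in pCTSH1 cells (16.0% of all probe sets) and 3 in pcDNA cells (18.5%). At 16 h against 0 h 5 of the 7 fell in pCTSH1 cells, where 25.6% of all probe sets did, and 7 of 7 in pcDNA cells, where 25.1% did. Nkx6-1 changed most, by -2.97 and -3.78 at 6 and 16 h in pCTSH1 cells and -3.14 and -3.01 in pcDNA cells. Pdx1 changed by -1.73 and -1.99 at 16 h in pCTSH1 and pcDNA cells. The remaining genes changed at 16 h by -0.78 to -0.17 and by -0.63 to -0.15. The 5 measured leukocyte genes summed to between 19.95 and 21.20 over the groups. Of these, Cd68 rose at 16 h by 1.24 ± 0.19 (adjusted p = 1.4e-05) in pCTSH1 cells and 0.83 ± 0.19 (adjusted p = 0.00104) in pcDNA cells. The 4 fibroblast genes summed to between 15.35 and 17.64, with Pdgfra lower at both times in both lines, and the 2 endothelial genes to between 7.27 and 8.17, with Pecam1 at least 1.08-fold higher at 6 h than at 0 h in pcDNA cells (adjusted p = 4e-06). The part of these shifts in the levels of the members was not tested.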

How the data were processed

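RNA from 21 samples of INS-1 cells was measured on 1 rat Affymetrix array each, in 7 groups of 3 taken from the sample labels. The values used are log2 intensities per probe set that the authors deposited; the submitters' processing notes list RMA, affy and limma and give no versions. RMA corrects background and, as usually run, equalises the probe distributions of the arrays and summarises the probes of a set, which removes most global shifts between arrays. The values were used as deposited. The table holds 31137 probe sets; without the 95 controls 31042 remained and were tested with no filter; 19063 had 1 gene symbol, 572 several, and 11407 were not listed in the annotation. A fold against a group in which at least 2 of 3 arrays lay at background is a lower bound against that background.

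One model of 7 group means was fitted with limma 3.58.1 (R 4.3.3; lmFit, eBayes, defaults; two-sided), with Benjamini-Hochberg adjustment over all 31042 probe sets in each of 14 comparisons and a threshold of 0.05. It was tested on simulated data, and no outcome of that test is given here. The labels number the replicates without saying that they were separate cultures, so p-values measure the spread between these samples, which may be technical. With 3 arrays a group, their number limits the precision.

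The text names the 9 members and may name any gene of 3 lists (other pathway genes, targets, feedback inhibitors), the 3 genes most like each member, Ctsh, Rac2, Nos2 and the cell type markers. Members and lists were chosen with earlier results of these data known. Listed genes without a probe set of their own symbol in the annotation used were not analysed here. The alternatives were to block on the replicate number, to centre arrays on medians, to apply cyclic loess, to keep the brighter 50% of probe sets, to run eBayes with trend and robust, to fit only the compared arrays, to average a gene's probe sets, and to leave out each array in turn.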

Additional observations from a re-analysis of the deposited data

Results flagged for a closer look

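By the interaction test of limma, the response differed between the lines for 1 of the 21 measured targets at 6 h, where 0.103% of all probe sets passed, and for 3 of 21 at 16 h, where 0.213% did. Whether the targets differ from the IRF, STAT and Jak2 genes in this was not tested. For Psmb8, an immunoproteasome subunit, the response at 6 h was larger in pCTSH1 than in pcDNA cells by 0.65 on the log2 scale (adjusted p = 0.0174) and at 16 h by 0.72 (adjusted p = 0.00572). Its means at 0, 6 and 16 h were 7.27, 11.44 and 12.10 in pCTSH1 cells and 8.00, 11.51 and 12.10 in pcDNA cells, so the levels lay apart at 0 h (-0.72, adjusted p = 1.74e-05) and the difference at 16 h was -0.00 (adjusted p = 0.992). For Fas, the death receptor, the response at 16 h was larger by 0.89 (adjusted p = 0.0302), with 4.75 at 0 h and 9.58 at 16 h in pCTSH1 cells and 5.62 and 9.56 in pcDNA cells. For Ciita, the activator of MHC class II genes, the response at 16 h was larger by 1.02 (adjusted p = 0.00544), with 4.24 at 0 h and 7.27 at 16 h in pCTSH1 cells and 4.55 and 6.57 in pcDNA cells. The Ciita levels lay apart at 16 h (0.70, adjusted p = 0.000632), while the difference at 0 h did not pass (-0.32, adjusted p = 0.215). At 0 h Ciita was near background, with means 0.17 above it in pCTSH1 cells and 0.51 in pcDNA cells. How the calls of Psmb8, Fas and Ciita fare under the alternatives is not given here.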

How the results depend on the processing

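Over all comparisons 1600 values of the measured members were recomputed under the alternatives, and 1566 kept their side of the threshold; 30 calls were lost, 4 gained and 0 reversed, and 56 values that passed in neither setting changed sign. The rises at 6 h and at 16 h against 0 h lost no call under the alternatives run. From 6 to 16 h in pCTSH1 cells, 5 members passed, but 3 did with the replicate number as a block, after cyclic loess or with only the arrays compared, and 2 to 5 when arrays were left out in turn. Between the lines at 16 h 1 member passed, and 0 did with only the arrays compared and 0 to 1 with arrays left out. Arrays of equal replicate number correlated over 0.1 in all 3 pairs for 2 of 21 pairs of groups (residual correlations -0.0903 to 0.244), so the block served only as an alternative; it gave 644, 963 and 1357 probe sets for the lines at 0, 6 and 16 h in place of 582, 887 and 1181.

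Counts of probe sets called moved more. With only the arrays compared they were 284 in place of 582 (lines at 0 h), 193 in place of 1181 (lines at 16 h), 30 in place of 66 (responses at 16 h), 46 in place of 83 (change from 6 to 16 h), 366 in place of 797 (pCTSH1 against INS1) and 0 in place of 3 (pcDNA against INS1). The brighter 50% of probe sets gave 110 for the responses at 16 h, 193 for the change from 6 to 16 h and 1 for pcDNA against INS1. The trend and robust settings gave 55 in place of 32 for the responses at 6 h, and 120, 212 and 5 for the same 3 comparisons. Leaving out arrays in turn gave 384 to 465, 531 to 646 and 757 to 1250 for the lines at 0, 6 and 16 h, 17 to 30 and 36 to 77 for the responses at 6 and 16 h, and 41 to 130 for the change from 6 to 16 h. Fits on fewer arrays have fewer degrees of freedom, and for the other shifts the cause was not tested. With 3 arrays a group, differences between the lines of the size seen for Irf2, Irf9 or Stat3 did not pass, which does not show that the lines are alike.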
